A study of Mus musculus with 20 samples.

Results

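The semaphorins, plexins and neuropilins are a family of guidance ligands and their receptors. They were taken from the expression table of embryonic dorsal root ganglia (DRG) by gene symbol alone: every protein-coding gene called Sema followed by a number, every Plxna, Plxnb, Plxnc and Plxnd gene, and Nrp1 and Nrp2. This gave 31 genes out of the 29049 with a value in at least 1 library, of which 20 are semaphorins, 9 are plexins and 2 are neuropilins. All 31 had reads in each of the 20 libraries, and 26 of them (15 ligands and 11 receptors) passed a filter of a mean of at least 1 RPKM (reads scaled to transcript length in kilobases and to library size) in at least 1 group. The 5 that did not pass were Sema3g, Sema4a, Sema4c, Sema6b and Sema6c.

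Semaphorins steer growing axons, mostly by repelling them, and also act on migrating neural crest, Schwann cells and blood vessels. The class 3 semaphorins are secreted. Most of them bind a neuropilin, which lacks a signalling tail of its own and mostly passes the signal on through an A-type plexin. Classes 4 to 6 span the membrane and class 7 is anchored to it by a lipid, and most of these bind plexins directly. Plexins signal inside the cell by acting on small GTPases and on the actin skeleton. In sensory ganglia they are known for guiding the axons to the spinal cord and the periphery.

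The ganglia came from C57Bl6 mouse embryos at E18.5, shortly before birth, with no transgene and no treatment in any group. Each of 10 embryos (males M1, M3, M5, M7 and M8, females F3, F7, F8, F9 and F10) gave 1 library of its L4-L5 ganglia, called lumbar, and 1 of its L6-S1 ganglia, called sacral, so that there were 20 libraries in 4 groups of 5 (lumbar male, sacral male, lumbar female, sacral female). Whole ganglia were used, with their neurons, glia, vessels and connective tissue, and the question was which genes differ with spinal level, sex or both. Sacral ganglia hold visceral sensory neurons for the pelvic organs beside somatic ones, and the sacral libraries hold both. As a check of the tissue, the summed level of 10 sensory neuron markers lay between 388 and 1640 RPKM in every library.

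The libraries held between 19606265 and 39678967 recovered reads, and the members between 5 reads (Sema3g, sacral F7) and 20607 reads (Plxna4, lumbar M8). Mitochondrial ribosomal RNA took from 17.83% (sacral F3) to 61.05% (lumbar M5) of a library. That share did not move one way with level: the sacral share was higher in 3 of 10 donors, with a mean difference of 0.624 ± 9.41 percentage points (SD, n = 10; exact sign-flip permutation p = 0.826, two-sided). Levels below are log2 RPKM, which corrects for transcript length, and differences are on the log2 scale, sacral minus lumbar.

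The promoters of 3 of the 4 members that were called between the levels are shown here, because that of Sema3d is unlike the others in its bases. Each line is the 250 bases before the gene start in RefSeq (GRCm38.p6), read 5′ to 3′ on the gene's own strand, with each GC box (GGGCGG, or CCGCCC where it lies on the other strand, overlapping matches counted each) in capitals. The Nrp2 promoter (chr1:62703067-62703316, plus strand) holds 5 GC boxes at 72.4% G and C, that of Plxna2 (chr1:194619579-194619828, plus strand) holds 2 at 62.8%, and that of Sema3d (chr5:12382916-12383165, plus strand) holds none at 46.8%.
Nrp2: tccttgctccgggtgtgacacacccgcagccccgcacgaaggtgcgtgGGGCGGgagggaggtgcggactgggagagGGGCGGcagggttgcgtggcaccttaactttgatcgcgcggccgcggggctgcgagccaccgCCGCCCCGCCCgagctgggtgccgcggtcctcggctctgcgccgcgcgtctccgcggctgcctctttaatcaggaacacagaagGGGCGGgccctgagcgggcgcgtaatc
Plxna2: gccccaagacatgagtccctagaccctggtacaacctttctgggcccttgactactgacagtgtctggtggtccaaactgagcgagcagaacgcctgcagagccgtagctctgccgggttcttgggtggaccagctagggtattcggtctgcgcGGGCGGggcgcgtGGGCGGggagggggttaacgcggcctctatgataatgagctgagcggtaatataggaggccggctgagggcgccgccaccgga
Sema3d: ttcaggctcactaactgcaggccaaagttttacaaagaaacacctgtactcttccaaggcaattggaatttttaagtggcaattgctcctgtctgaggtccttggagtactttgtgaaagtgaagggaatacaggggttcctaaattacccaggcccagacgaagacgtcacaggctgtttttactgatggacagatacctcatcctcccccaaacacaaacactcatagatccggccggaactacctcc
The fourth, Plxnb2, has 2 listed starts, whose promoters hold 4 and 3 GC boxes at 69.2% and 63.6% G and C, so that of the 4 only Sema3d had none. The 26 members with an entry are not the 26 that were tested. They include the 5 under the filter and lack Plxna1, Plxna4, Sema3b, Sema3f and Sema6a. Of the 37 promoters of these members 27 held a GC box, against 32.7% of 32851 promoters of the same length. The 37 include several starts of the same gene, and no comparison with promoters of genes of like level was made. TAATTA, a core bound by many homeodomain proteins, was in 0 of the 37 (4.84% of all promoters) and TTTATNG, a motif of posterior Hox proteins, was in 1 (9.81%), each searched on both strands. These are matches of letters in these windows and do not show binding.

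Among the ligands the highest mean level was that of Sema4f, a transmembrane class 4 semaphorin, at 5.20 ± 0.69 log2 RPKM (SD over 20 libraries) and between 13.2 and 78.7 RPKM. Sema6d, a transmembrane ligand of A-type plexins, followed at 4.31 ± 0.38 and between 11.8 and 36.3 RPKM. Sema4d, the ligand of Plxnb1, was at 3.34 ± 0.58 and between 4.89 and 19.0 RPKM. The distance between Sema4f and Sema6d exceeded the SD of either gene, whereas Sema4d, Sema6a (3.30 ± 0.23) and Sema5a (3.17 ± 0.35) lay within 1 SD of each other. The secreted class 3 ligands were lower: Sema3d (2.72 ± 0.56), Sema3c (2.65 ± 0.39), Sema3b (2.19 ± 0.36), Sema3f (1.51 ± 0.39), Sema3e (0.71 ± 0.51) and Sema3a (0.10 ± 0.46), in that order. Summed over a class, the 7 class 3 genes reached 19.3 to 32.6 RPKM per library and the 6 class 4 genes 26.7 to 114.0 RPKM.

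Plxna4 led the receptors at 4.87 ± 0.59 log2 RPKM (SD, n = 20), with a range of 10.5 to 57.0 RPKM. It is the plexin best known for carrying the Sema3a signal in sensory axons. Nrp1, the neuropilin that binds Sema3a and also vascular endothelial growth factor, was at 4.62 ± 0.41 and between 15.7 and 42.7 RPKM, less than 1 SD below Plxna4. Plxna2 came next at 3.95 ± 0.38, before Plxnd1, the receptor of Sema3e, at 3.51 ± 0.40. Nrp2, which binds Sema3f, was at 3.06 ± 0.40, so that both neuropilins were above every class 3 ligand in mean level. Nrp2 lay within 1 SD of Sema3d (2.72 ± 0.56), however, and was below it in some libraries. At the low end stood Plxna3 (2.13 ± 0.29) and Plxnb3, a receptor of Sema5a (0.02 ± 0.55).

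**Figure D1:**
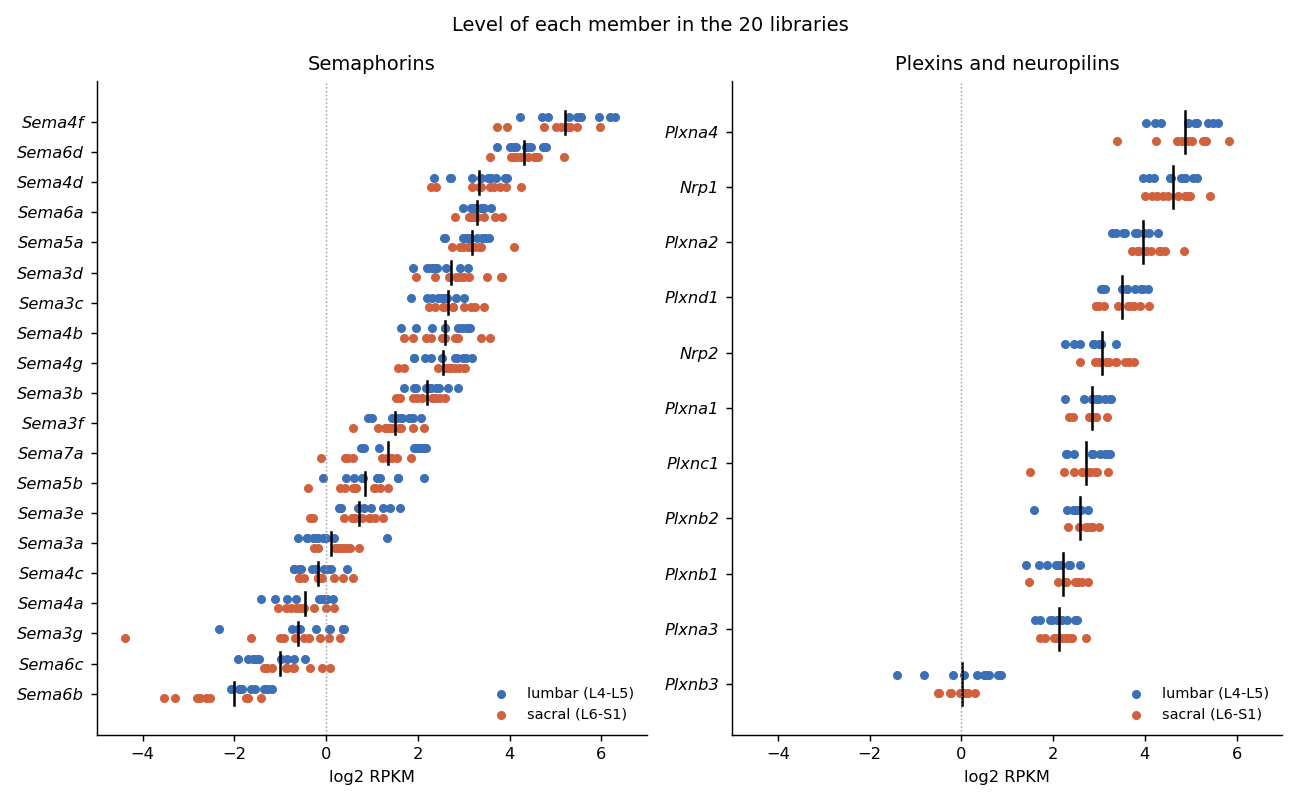
Level of the 31 members in log2 RPKM (horizontal axis), with 1 point per library, 10 lumbar and 10 sacral, and a vertical bar at the mean over the 20. Sema4f led the semaphorins at 5.20 and Plxna4 the receptors at 4.87, and the 5 lowest semaphorins have means below 0, which is 1 RPKM.

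Between the spinal levels, 4 members were called at an adjusted p of at most 0.05, each of them higher in the sacral ganglia and none lower: the receptors Nrp2, Plxna2 and Plxnb2 and the ligand Sema3d. That is 4 of 26, or 15.4%, against 6.73% of all 14529 genes tested (978 genes). Counted in the higher direction alone the background was 2.7% (392 genes), and in the lower direction, in which no member was called, 4.03% (586 genes). Under quantile normalization the split of the called genes moved from 40.1% higher to 51.6% higher. At an unadjusted p under 0.05 there were 7 members, or 26.9%, close to the 24.1% of all genes. Counting donors in place of a test, 3 members were higher in the sacral library of at least 9 of 10 donors (4.68% of all genes were) and 1 was lower in at least 9 (7.41%), while none was lower in all 10 (1.95%). By role, 3 of the 11 receptors and 1 of the 15 ligands were called. The median difference of the members was -0.015, beside -0.048 over all genes.

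**Figure D2:**
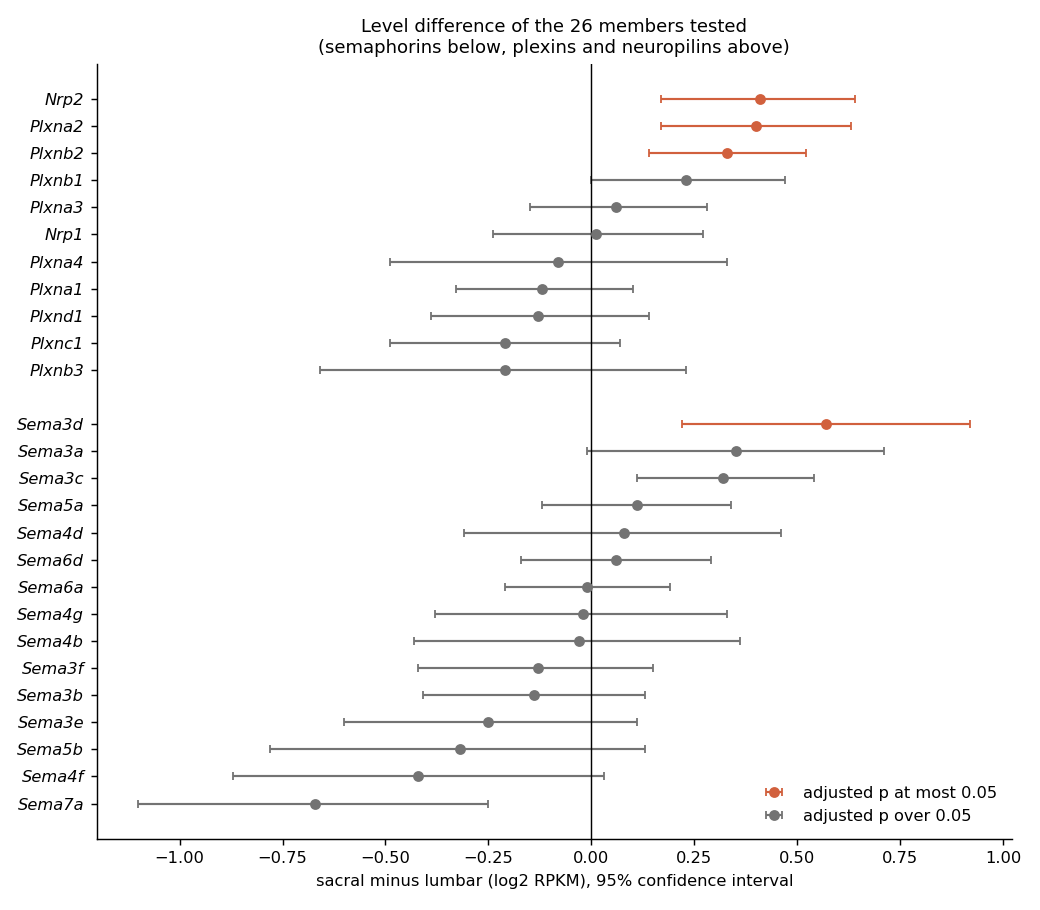
Sacral minus lumbar difference (log2 RPKM, horizontal axis) of the 26 members tested, each point with its 95% confidence interval, 10 donors. The 4 called members lie between 0.33 and 0.57, and Sema7a at -0.67 is the lowest.

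Nrp2 is the neuropilin that binds Sema3f and, through it, sorts axons and neural crest cells. In males M1, M3, M5, M7 and M8 it was at 7.46, 8.14, 4.75, 7.28 and 8.27 RPKM in the lumbar ganglia and at 7.55, 8.89, 6.01, 11.8 and 7.97 RPKM in the sacral ganglia. In females F3, F7, F8, F9 and F10 the lumbar values were 8.25, 8.03, 10.3, 5.49 and 5.96 RPKM and the sacral values 12.6, 13.5, 10.4, 9.32 and 10.3 RPKM. The sacral library was higher in 9 of 10 donors, by 0.61 to 0.79 in 4 of the females, and the difference lay between -0.05 and 0.02 in M1, M8 and F8. The lumbar and sacral ranges overlapped. The fitted difference was 0.41 ± 0.11 (SE), a 1.32-fold higher level, with a 95% confidence interval of 0.17 to 0.64 and an adjusted p of 0.0335. Without the donor block the adjusted p was 0.170. The call was lost without M1, M3, M5, M7, F3, F7, F9 or F10, where the adjusted p lay between 0.055 and 0.0935 and the difference between 0.35 and 0.43. The gene lies at 62749859 to 62865269 on chromosome 1 (mm9, plus strand), and no annotated gene overlaps it.

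Plxna2, an A-type plexin that serves class 3 ligands through neuropilins and class 6 ligands directly, was higher in the sacral library of all 10 donors. Its lumbar values in the males, in the order above, were 13.8, 17.0, 9.73, 14.3 and 19.4 RPKM and its sacral values 16.3, 21.6, 14.2, 28.9 and 19.9 RPKM. In the females they were 15.7, 10.4, 11.5, 14.1 and 11.9 RPKM in the lumbar and 20.5, 13.1, 16.3, 14.7 and 17.5 RPKM in the sacral ganglia. The rise was largest in M7, at 1.02, and smallest in M8 and F9, at 0.03 and 0.06, and the ranges of the levels overlapped. The fit gave 0.40 ± 0.11 (95% confidence interval 0.17 to 0.63), or 1.32-fold, with an adjusted p of 0.0331, and 0.174 without the donor block. Leaving out M1, M3, M5, M7, F3, F7 or F10 gave an adjusted p of 0.0527 to 0.0987, with differences of 0.33 to 0.43. Plxna2 spans 196446023 to 196643063 on chromosome 1 (mm9, plus strand).

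Plxnb2, a B-type plexin that binds class 4 semaphorins, was likewise higher in the sacral library of all 10 donors. Only 0.895% of all genes tested were higher in all 10, and 2 of the 26 members were. In the males its values were 6.10, 4.93, 2.98, 5.63 and 5.89 RPKM in lumbar and 7.21, 6.66, 4.98, 8.03 and 7.21 RPKM in sacral ganglia. In the females they were 5.79, 5.47, 6.73, 5.69 and 5.41 RPKM in lumbar and 7.18, 7.05, 7.14, 5.92 and 6.55 RPKM in sacral ganglia. M5 had both the lowest lumbar level and the largest rise, 0.74, and its lumbar library was also the library with the highest mitochondrial ribosomal RNA share. The fitted difference was 0.33 ± 0.09 (95% confidence interval 0.14 to 0.52), or 1.26-fold, with an adjusted p of 0.0340, and 0.190 without the donor block. Without M5 it was 0.29 with an adjusted p of 0.0269, so that the call did not rest on that donor. Leaving out M3, M7, F3, F7 or F10 lost the call, at an adjusted p between 0.0552 and 0.105. The gene lies at 88985979 to 89011218 on chromosome 15 (mm9, minus strand).

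Sema3d, a secreted class 3 ligand, showed the largest rise of the 4 and the widest spread. Its lumbar values were 6.13, 4.99, 5.16, 8.52 and 7.62 RPKM in the males, and its sacral values 8.67, 8.04, 7.50, 6.37 and 14.0 RPKM. In the females the lumbar values were 3.73, 5.34, 4.56, 4.65 and 4.96 RPKM and the sacral values 7.16, 14.3, 5.16, 3.91 and 11.3 RPKM. It was higher in the sacral library of 8 of 10 donors, by up to 1.42 in F7, and lower in M7 and F9. The fitted difference was 0.57 ± 0.17 (95% confidence interval 0.22 to 0.92), or 1.48-fold, with an adjusted p of 0.0455, and 0.179 without the donor block. The call was also lost with the donor as a fixed term (adjusted p = 0.0638), under quantile normalization (adjusted p = 0.0583) and with the mitochondrial ribosomal RNA share as a covariate (adjusted p = 0.0705), and the adjusted p lay between 0.087 and 0.128 on leaving out M1, M3, M5, M8, F3, F7 or F10. Sema3d lies at 12383166 to 12588943 on chromosome 5 (mm9, plus strand), on the same chromosome as Sema3a, Sema3e and Sema3c.

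**Figure D3:**
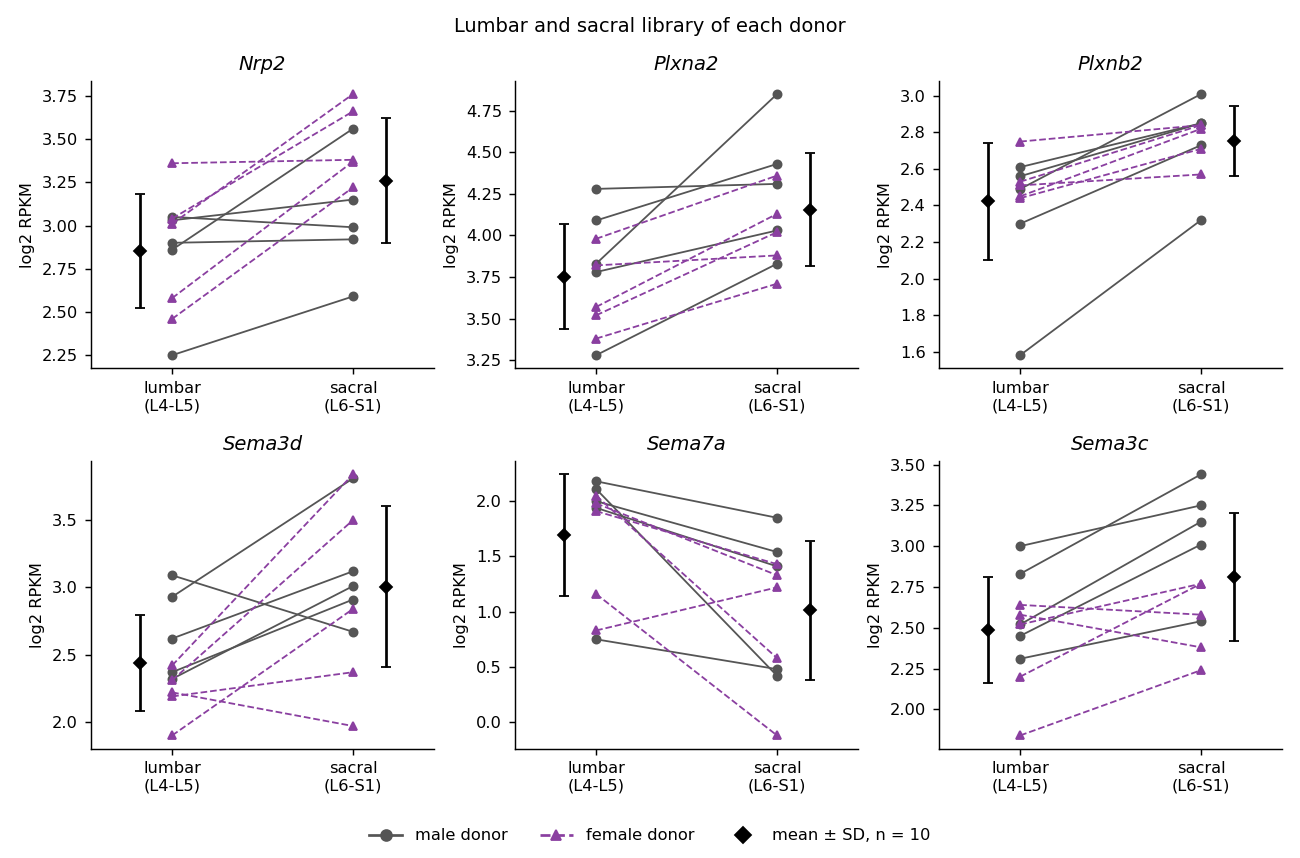
Lumbar and sacral level (log2 RPKM, vertical axis, a range of its own per gene) of the 4 called members and of Sema7a and Sema3c, with 1 line per donor (males with circles, females with triangles) and diamonds at the mean ± SD of 10 libraries. The lines of Plxna2 and Plxnb2 rise in all 10 donors, and those of Sema7a slope down in 9.

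Just outside the threshold lay a ligand with the opposite sign and another class 3 ligand. Sema7a, the lipid-anchored ligand of Plxnc1 and of an integrin, was at 3.99, 4.53, 1.68, 3.83 and 4.30 RPKM in the lumbar ganglia of the males and at 2.90, 3.62, 1.39, 2.66 and 1.33 RPKM in their sacral ganglia. In the females it was at 3.94, 2.23, 1.77, 3.75 and 4.13 RPKM in lumbar and at 2.52, 0.921, 2.34, 2.70 and 1.49 RPKM in sacral ganglia. The sacral library was lower in every donor but F8, which is 9 of 10. Its difference of -0.67 ± 0.20 (95% confidence interval -1.10 to -0.25) had an adjusted p of 0.0504 and passed the threshold in 6 of 21 alternatives, among them the fit without F8 (adjusted p = 0.0127) and the fit with the mitochondrial share as a covariate (adjusted p = 0.0216). Its receptor Plxnc1 had a difference of -0.21 ± 0.13 and was lower in 8 of 10 donors (adjusted p = 0.340).

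Sema3c, which acts through both neuropilins, had a difference of 0.32 ± 0.10 (95% confidence interval 0.11 to 0.54, adjusted p = 0.0637) and was higher in 8 of 10 donors. Of the other class 3 ligands, Sema3a, the best studied repellent of sensory axons, was at 0.655 to 0.954 RPKM in the lumbar and 0.891 to 1.43 RPKM in the sacral ganglia of the males, with a difference of 0.57 ± 0.10 (SD, n = 5) that was positive in each of them. In the females it was higher in the sacral library of F7, F9 and F10, and lower in that of F3 and of F8. The lumbar library of F8 held the highest value of all libraries, 2.49 RPKM, which the check for outliers below did not flag. The fitted difference over both sexes was 0.35 ± 0.17 (adjusted p = 0.226), and 0.50 without F8 (adjusted p = 0.0317). Sema3b, Sema3e and Sema3f had differences of -0.14, -0.25 and -0.13, each with an interval that holds 0. The sum of the class 3 ligands differed by 0.20 ± 0.23 (SD, n = 10) and was higher in 7 of 10 donors.

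The remaining receptors and ligands gave no call. Nrp1 differed by 0.01 ± 0.12 (95% confidence interval -0.24 to 0.27), Plxna4 by -0.08 ± 0.20 (-0.49 to 0.33), Plxna1 by -0.12 ± 0.10 (-0.33 to 0.10) and Plxna3 by 0.06 ± 0.10 (-0.15 to 0.28). Plxnb1, the receptor of Sema4d, had a difference of 0.23 ± 0.11 (adjusted p = 0.207). Sema4f, the most abundant ligand, had a difference of -0.42 ± 0.22 (adjusted p = 0.238), and the summed class 4 ligands differed by -0.24 ± 0.49 (SD, n = 10), with the sacral value above the lumbar one in 2 of 10 donors. The 4 called members lay at 0.33 to 0.57. Among the ligands with a difference near 0, the intervals of Sema4b, Sema4d and Sema4g reached to 0.36, 0.46 and 0.33, whereas those of Sema6a (-0.21 to 0.19) and Sema6d (-0.17 to 0.29) ended below that size. The spans of Plxna1, Plxna4, Plxnb1, Sema3e, Sema4d, Sema5b and Sema6d, introns included, overlap annotated genes on the other strand. Overlap of exons was not checked, so whether reads of a partner were counted with theirs is not known. The pseudogene Gm5963 inside Sema5b was at a mean of 4.81 log2 RPKM, against 0.85 for Sema5b itself.

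Ratios within a library do not depend on how libraries are scaled. These ratios were picked after the values of the members were seen and are given without a test. In the lumbar ganglia Plxna2 was at 1.49 to 2.05 times the level of Plxna1 (median 1.85), and in the sacral ganglia at 1.89 to 3.19 times (median 2.74). The ratio was higher in the sacral library of all 10 donors, by 0.52 ± 0.18 on the log2 scale (SD, n = 10). The ratio of Plxna2 to Plxna4 was higher in 9 of 10 donors, with medians of 0.430 in lumbar and 0.577 in sacral ganglia. That of Nrp2 to Nrp1 was higher in 8 of 10, with medians of 0.262 and 0.392. The ratio of Sema3f to Sema3a, the ligands that these neuropilins bind, was higher in 1 of 10 donors only, with medians of 3.74 in lumbar and 2.27 in sacral ganglia. Other ratios with a called member moved less: that of Plxnb2 to Plxnb1 differed by 0.10 ± 0.50 (higher in 6 of 10 donors), Sema3d to Sema3a by 0.22 ± 0.83 (6 of 10) and Sema3d to Sema3c by 0.24 ± 0.67 (8 of 10). The summed B-type plexins were higher in the sacral library of all 10 donors, by 0.22 ± 0.15.

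The donors did not contribute alike. In M7, 23 of the 26 members were higher in the sacral library, with a median difference of 0.59, and 15 of the 26 had their highest difference there. The members have long transcripts (at least 3296 bases of exon), and in M7 the median difference was 0.16 over the 7197 tested genes at least that long and -0.19 over the 7265 shorter ones. In M8, by contrast, 6 of 26 members were higher in the sacral library, with a median of -0.24, beside -0.14 over the long genes. In F8, 21 of 26 members were higher and the median was 0.29, beside 0.02 over the long genes. In the other 7 donors between 7 and 14 members were higher. Without M7 a single member was called (Sema3d), without F8 there were 7 (the 4 above and Sema3a, Sema3c and Sema7a), and without M3, F3, F7 or F10 there were 0, at unchanged directions of the 4. The number of all genes called moved too, from 978 to 406 without F10 and to 1608 without F8.

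Markers of other cell types moved with level. Lists of 5 to 10 symbols, summed in RPKM per library, were compared between the libraries of each donor by an exact sign-flip permutation test (two-sided, adjusted over 12 lists), and 8 lists passed. The sensory neuron list ran from 763 to 1640 RPKM in lumbar and from 388 to 1400 RPKM in sacral ganglia, lower in 9 of 10 donors by -0.37 ± 0.37 (SD, n = 10; exact adjusted p = 0.0146). The list for large myelinated neurons changed by -0.53 ± 0.32, that for small neurons by -0.30 ± 0.22, and that for Schwann cells and satellite glia by -0.40 ± 0.30 (exact adjusted p = 0.00937 each). Not every gene of these neuron lists had a lower mean in the sacral ganglia. Of the large neuron genes 3 were higher (Spp1, Heg1 and Whrn) and 5 lower. Of the small neuron genes 1 was higher, Trpv1 (a mean of 1.65 log2 RPKM in lumbar and 2.35 in sacral ganglia), and 7 were lower. The small neuron list held 1 gene called higher and 1 called lower. Of the 10 sensory neuron genes 1 was called lower, and of the large neuron and glia lists 3 genes each. None of these other lists held a gene called higher. Fibroblast and meningeal markers rose by 0.42 ± 0.36 (exact adjusted p = 0.0146), from 195 to 445 RPKM in lumbar to between 270 and 601 RPKM in sacral ganglia. Of their 8 genes 5 were called higher. Cartilage markers rose by 0.64 ± 0.37 (exact adjusted p = 0.00937), with all 7 genes higher in their mean. Only 4 of the 7 passed the filter and 1 was called higher. The sum came mostly from Col2a1 (a mean of 2.46 log2 RPKM in lumbar and 3.27 in sacral ganglia) and Hapln1 (1.68 and 1.91). The summed endothelial list rose by 0.33 ± 0.28 (exact adjusted p = 0.0146), but its sum came mostly from Cdh5 (a mean of 4.59 log2 RPKM in lumbar and 5.06 in sacral ganglia), and Pecam1 (2.18 and 2.07), Egfl7 (0.18 and -0.23) and Tie1 (-0.14 and -0.49) had lower means in the sacral ganglia. With the mean of the log2 values in place of the sum, the endothelial list differed by 0.03 ± 0.35 (exact adjusted p = 0.764) and the small neuron list by -0.17 ± 0.29 (exact adjusted p = 0.146), so neither passed, and the other 6 did.

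These shifts were similar in size to the differences of the 4 called members, and their part in those differences was not tested. The levels of a gene in such whole ganglia cannot tell fewer cells of a type from less RNA per cell. In the sacral library of F8 the sensory neuron markers were higher (0.21) and the fibroblast and endothelial markers lower (-0.26 and -0.21). The other 9 donors went the other way. In F8 the differences of Nrp2 (0.02), Plxnb2 (0.08) and Sema3d (0.18) were below their donor medians (0.48, 0.30 and 0.61). That of Plxna2 (0.50) was above its median (0.36). Differences as small or smaller were also found among those 9 donors. They were those of Nrp2 in M1 (0.02) and M8 (-0.05), Plxnb2 in F9 (0.06), and Sema3d in M7 (-0.42) and F9 (-0.25). Sema7a was higher in the sacral library of F8. A list for spinal motor neurons rose by 1.09 ± 0.51 in 10 of 10 donors, the smallest p such a test can give (exact p = 0.00195), but Mnx1, Chat and Lhx3, which define these cells, were at 0 reads in 19, 17 and 16 of the 20 libraries, and the sum came from Slc5a7. The lists for muscle (-0.34 ± 1.27), macrophages (0.13 ± 0.31), red blood cells (0.07 ± 0.38) and autonomic neurons (0.31 ± 0.66) did not pass.

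Other genes of the pathway were taken as lists. None of the 12 tested co-receptors and other receptors of semaphorins was called, with a median difference of -0.057 and a range from -0.29 (Cntn2) to 0.32 (Met). Of the cytoplasmic effectors, 2 of 25 tested identifiers were called, beside 6.73% of all genes, with a median of -0.098. Mical2, an enzyme that oxidises actin and its regulators and belongs to a family that binds A-type plexins, was higher in the sacral library of 9 of 10 donors, by 0.47 ± 0.13 (adjusted p = 0.0342). Its call was lost without M1, M3, M5, F3, F7, F9 or F10 (adjusted p of 0.0635 to 0.0992) and without the donor block (adjusted p = 0.185). Cdk5, a kinase that acts downstream of Sema3a, was lower in 8 of 10 donors, by -0.36 ± 0.10 (adjusted p = 0.0341). That call was lost without any donor but M3 or F8 (adjusted p of 0.0645 to 0.103) and without the donor block (adjusted p = 0.147).

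Between the sexes no member was called in either ganglion. In the lumbar ganglia 0 of 26 members and 0.33% of all genes (48 genes) passed, and in the sacral ganglia 0 of 26 members and 1.01% of all genes (147 genes). By the same limma fit, 2 members had an unadjusted p under 0.05 in the lumbar ganglia (8.28% of all genes did) and 5 in the sacral ganglia (15.5% of all genes). In both ganglia Plxnb1 was higher in females, by 0.43 ± 0.20 in each (adjusted p = 0.570 and 0.305), and Sema6d was lower in females, by -0.41 ± 0.19 and -0.50 ± 0.19 (adjusted p = 0.584 and 0.216). The other 3 in the sacral ganglia were Sema3c at -0.53 ± 0.18 (adjusted p = 0.171), Nrp1 at -0.50 ± 0.21 (adjusted p = 0.279) and Nrp2 at 0.43 ± 0.19 (adjusted p = 0.292), each female minus male. Without M5 both Nrp1 (-0.68, adjusted p = 0.0389) and Sema3c (-0.66, adjusted p = 0.0462) were called, and with sample weights 1 member was, Sema3c (adjusted p = 0.0332).

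The level difference was not called different between the sexes for any gene. In the test of the interaction 0 of 26 members and 0.0% of all genes passed, with 0 members and 470 genes (3.23%) at an unadjusted p under 0.05. The adjusted p of the members lay between 0.995 and 0.999. Nrp2 rose by 0.59 on average in the females and 0.23 in the males, an interaction of 0.36 ± 0.22 with a 95% confidence interval of -0.10 to 0.82. Sema3a gave -0.44 ± 0.35 (-1.16 to 0.28). The interaction was negative for 20 of 26 members, and for 8880 of all 14529 genes.

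The 5 members under the filter had few reads in some libraries and are given without a call. Sema3g, an endothelial class 3 ligand, ran from 5 to 242 reads and from 0.0478 to 1.30 RPKM, and Sema4a, Sema4c and Sema6c from 33, 50 and 32 reads upwards. Sema6b was the lowest member, at 0.0859 to 0.440 RPKM and 8 to 65 reads. In a fit over all 29049 genes with a value the differences of Sema6b and Sema6c were -0.81 ± 0.27 (adjusted p = 0.131) and 0.54 ± 0.19 (adjusted p = 0.148), larger than those of most members tested. In that fit 0 of the 31 members were called by limma, and the adjusted p of the 4 named above rose to between 0.0813 and 0.109.

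**Figure D4:**
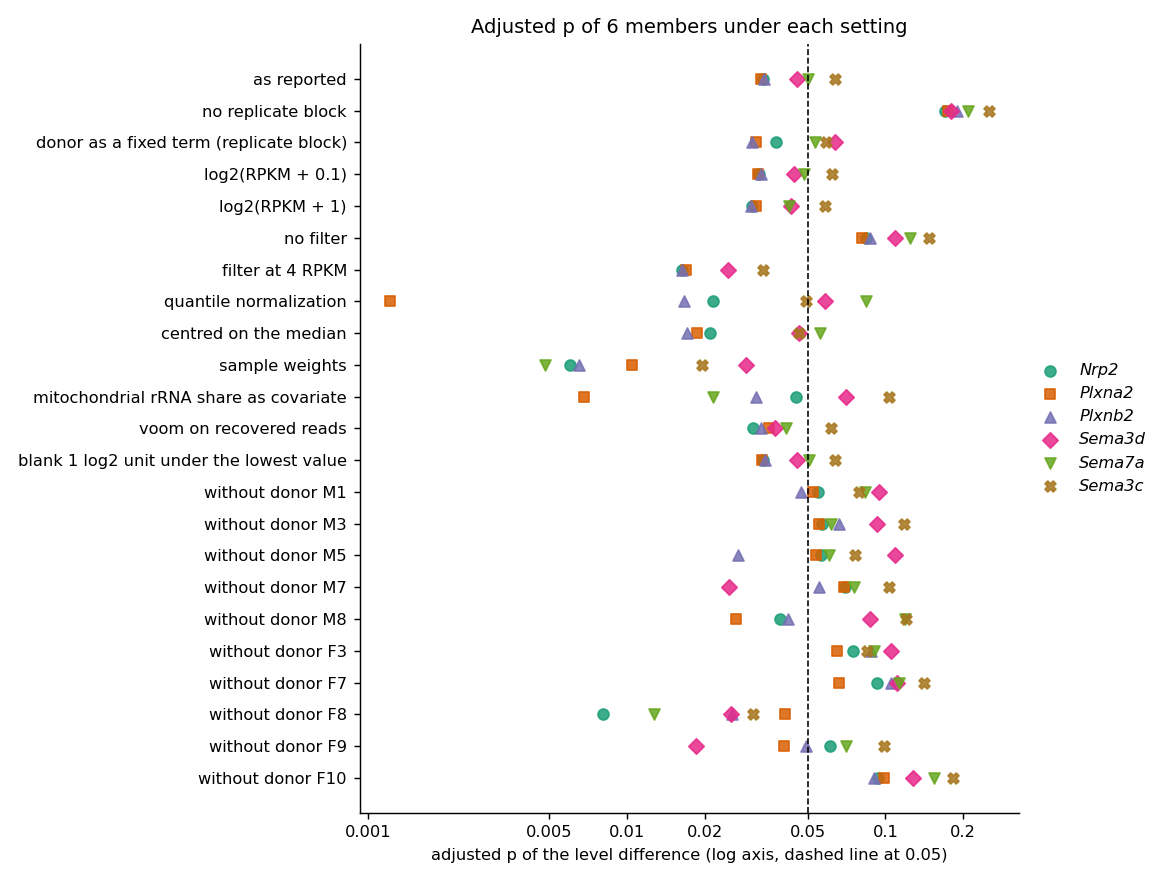
Adjusted p of the level difference (horizontal log axis, dashed line at 0.05) of the 4 called members, Sema7a and Sema3c as reported (top) and under each of 22 alternatives. Without the replicate block and without the filter all 6 lie right of the line, and under quantile normalization Plxna2 is at 0.00121.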

How the data were processed

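RNA-seq was done on 20 libraries of whole DRG, a lumbar (L4-L5) and a sacral (L6-S1) library from each of 10 E18.5 C57Bl6 embryos, grouped by the labels for region and sex. The authors purified RNA on RNeasy columns, amplified cDNA with the Ovation kit, made Nextera XT libraries and sequenced them on a HiSeq2500. Reads were aligned to mm9 with Subread (versions 1.18 and 1.20.6 in the submitters' processing notes), uniquely mapped reads were counted per Ensembl gene by featureCounts and scaled by TMM and voom (limma 3.26.9 and edgeR 3.12.1). Whether counting used strand is not stated. The submitters' processing notes also list a human build, GRCh37.p7, whose use is not given in the sources used here. The deposited values are log2 RPKM. The table lists 37620 genes, of which 8571 are blank in all 20 libraries. All libraries have the same median, 0.930302, over the genes with a value in each (21202 to 23768 genes). A difference is thus relative to a median over sets of genes that are not the same in each library.

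Whole reads were recovered with exon lengths of GENCODE M1 (mm9), where 98.36% of the values under 1000 reads came out within 0.05 of a whole number, for 28324 genes at each value. A blank was set to the log2 RPKM of 0.5 reads, and no member had a blank. Depth per library was 19606265 to 39678967 reads. The cDNA was amplified without molecular identifiers, so counts cover counting error only.

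Differences were fitted to the log2 RPKM values with limma 3.58.1 (R 4.3.3, statmod 1.5.0), with a mean for each of the 4 groups, a variance trend and the donor as a block (duplicateCorrelation, 0.3417). Genes with a mean of at least 1 RPKM in at least 1 group (14529) were tested, two-sided, with Benjamini-Hochberg adjustment over all of them at 0.05. The fit was tested on simulated data. Each donor gave both libraries by the labels, so the samples are paired by animal, and the deviations of a donor's libraries from their group means had correlations of -0.166 (M8) to 0.676 (M5). P-values of the level difference and the interaction rest mainly on how the sacral minus lumbar difference varies between embryos, with 1 library per level in each. Those of the sex differences rest on the spread of levels between embryos. The litters are not given in the labels.

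The members, the pathway and marker lists and the alternatives were chosen with earlier results of these data known. All members are accounted for, with every donor's values for those past the threshold, and of the pathway lists those past the threshold are named. Sema7a, Sema3c and Sema3a are named as neighbours of the threshold or for a high value in a library, after their values were seen. Of the marker symbols 1 was not found. Alternatives were the fit without the block, donor as a fixed term, 0.1 or 1 added to RPKM, no filter or 4 RPKM, quantile normalization, median centring, sample weights, the mitochondrial share as covariate, voom on recovered reads, another value for blanks, and leaving out each donor. Promoters came from RefSeq (GRCm38.p6).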

Additional observations from a re-analysis of the deposited data

Results flagged for a closer look

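In 150 sets of values (each member in each group of 5 libraries, and the 10 donor differences of each member tested) the highest or lowest value stood apart from the rest in 10, about as many as chance gives at 1 in 20. In M5, the lumbar library with the highest mitochondrial ribosomal RNA share held 3 of them among the lumbar males: Nrp2 at 2.25 log2 RPKM (the other 4 at 2.86 to 3.05), Sema4f at 4.22 (5.29 to 5.56) and Sema7a at 0.75 (1.94 to 2.18). Its sacral library was low in Sema3e, at -0.36 (the other sacral males at 0.78 to 1.23). In M7 the sacral minus lumbar difference was 1.02 for Plxna2 (0.03 to 0.55 in the other 9 donors) and 0.82 for Sema6d (-0.26 to 0.18), and the sacral level of Sema5a was 4.10 log2 RPKM (3.10 to 3.38 in the other 4 males). Without M7 the level difference of Plxna2 was 0.33 (adjusted p = 0.0691). In sacral F7, the library with the fewest reads, Sema3g was at -4.39 log2 RPKM (-0.91 to -0.13 in the other 4 females) and Sema4g at 1.57 (2.62 to 3.03). Plxnb3 in sacral M3 was at -0.50 log2 RPKM (-0.03 to 0.14 in the other 4 males).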

How the results depend on the processing

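Over 22 alternatives no called difference of a member reversed. Some of the 22 could not reverse one. The block, the donor as a fixed term, the filters and the value for blanks leave a tested member's difference unchanged. This is because each donor has both libraries and no member had a blank. Of 566 recomputed differences 38 lost a call, 14 gained one and 514 did neither, and 8 members changed sign while not called, in 29 values. The number of members called between the levels, 4 as reported, was 0 without the replicate block (154 of all genes), 0 with no filter (507 of all genes, among 29049 tested) and 8 with sample weights (2998 of all genes), where Sema3a, Sema3c, Sema4f and Sema7a joined the 4. The 4 calls depend on pairing by donor: with the donor as a fixed term (a replicate block of another kind) Nrp2, Plxna2 and Plxnb2 stayed called and Sema3d had an adjusted p of 0.0638, and without the block the adjusted p values were 0.170, 0.174, 0.190 and 0.179 at the same differences. Under quantile normalization Sema3d was lost (adjusted p = 0.0583) and Sema3c gained (0.0492). Leaving out each donor in turn gave 0 to 7 members and 406 to 1608 genes. In the sacral ganglia the members called between the sexes were 0 as reported, 1 with sample weights and from 0 to 2 on leaving out a donor. In the lumbar ganglia and in the interaction they were 0 under each alternative. Of 12 marker lists 8 passed as reported, 8 to 9 on leaving out a donor and 7 with the mean of log2 values, where the small neuron and endothelial lists were lost and the autonomic neuron list was gained (0.70 ± 0.71, exact adjusted p = 0.0273). The reads behind the members limit the 5 under the filter most.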
